A study of Homo sapiens with 8 samples.

Results

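The genes of 7 methyl-CpG binding proteins were followed in HepG2, a line established from a human hepatocellular carcinoma, with and without overexpression of DNMT3A, a de novo DNA methyltransferase. They were taken by gene symbol from the deposited gene table and are 7 of its 58735 genes: MBD1, MBD2, MBD3, MBD4, ZBTB33 (Kaiso), ZBTB38 and ZBTB4. There were 4 libraries of cells infected with a DNMT3A-overexpressing lentivirus and 4 libraries from cells that received the control lentivirus, whose genotype label is WT. Library names of both groups carry pLV_EGFP, and neither the promoter of the transgene nor the number of separate infections is known from the sources used here. Levels are in FPKM, fragments per length of the gene after scaling between libraries. A difference is DNMT3A minus control on the scale of log2(FPKM + 1), which understates the change of low genes. The test was limma over the 11620 genes whose mean reached 1 FPKM, with Benjamini-Hochberg adjustment over all of them and a threshold of 0.05.

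Methylation of cytosine in CpG dinucleotides is read by proteins that bind the methylated site and bring enzymes that close chromatin. One family shares the methyl-CpG binding domain (MBD). MBD1 and MBD2 are repressors, MBD3 of mammals has lost selective binding of methylated DNA but sits in the NuRD deacetylase complex, and MBD4 is a DNA repair glycosylase. The other family has a BTB domain and zinc fingers and consists of Kaiso, ZBTB4 and ZBTB38. In hepatocellular carcinoma cells MBD2 has been linked to silencing of the methylated GSTP1 promoter.

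Promoters of most of these readers are themselves dense in CpG, the substrate of DNMT3A, and 4 windows are shown: those of ZBTB4 and MBD2, the members whose groups did not overlap, and the 2 extremes among the starts of ZBTB38. The windows are from RefSeq (GRCh38.p14), run from 250 bases before a transcription start to 50 bases after it, and are written 5′ to 3′ with each CpG in capitals. The first is that of ZBTB4 at chr17:7484200-7484499, minus strand, and the second that of MBD2 at chr18:54224620-54224919, minus strand. The other two are the ZBTB38 starts with the most and the fewest CpG sites, at chr3:141402099-141402398 and chr3:141386620-141386919, plus strand.
ZBTB4: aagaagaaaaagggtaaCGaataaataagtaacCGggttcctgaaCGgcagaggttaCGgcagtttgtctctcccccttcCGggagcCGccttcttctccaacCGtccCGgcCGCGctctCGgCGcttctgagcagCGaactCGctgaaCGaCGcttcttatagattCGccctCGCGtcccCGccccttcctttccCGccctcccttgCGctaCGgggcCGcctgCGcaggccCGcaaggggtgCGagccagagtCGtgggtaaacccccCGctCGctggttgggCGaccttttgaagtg
MBD2: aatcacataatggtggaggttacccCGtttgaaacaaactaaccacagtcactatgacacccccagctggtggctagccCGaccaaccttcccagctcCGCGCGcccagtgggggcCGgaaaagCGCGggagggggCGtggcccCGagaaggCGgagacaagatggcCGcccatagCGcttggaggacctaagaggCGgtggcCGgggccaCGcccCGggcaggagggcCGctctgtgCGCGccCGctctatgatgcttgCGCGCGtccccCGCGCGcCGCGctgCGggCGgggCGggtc
ZBTB38 CpG-dense start: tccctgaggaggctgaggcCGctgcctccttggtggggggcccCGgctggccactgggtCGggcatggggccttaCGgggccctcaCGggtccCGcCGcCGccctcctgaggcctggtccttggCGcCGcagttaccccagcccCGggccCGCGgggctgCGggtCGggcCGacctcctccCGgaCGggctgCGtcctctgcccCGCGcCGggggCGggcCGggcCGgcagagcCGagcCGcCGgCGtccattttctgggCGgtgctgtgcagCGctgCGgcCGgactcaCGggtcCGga
ZBTB38 CpG-free start: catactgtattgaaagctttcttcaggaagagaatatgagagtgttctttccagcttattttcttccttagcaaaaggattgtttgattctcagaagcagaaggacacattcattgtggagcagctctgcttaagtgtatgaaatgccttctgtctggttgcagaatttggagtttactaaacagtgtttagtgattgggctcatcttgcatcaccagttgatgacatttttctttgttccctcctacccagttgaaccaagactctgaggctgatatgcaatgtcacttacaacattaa
The ZBTB4 window held 31 CpG sites and the MBD2 window 32. The dense ZBTB38 window held 35 and the other 0.

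All 7 members had at least 1 window, 16 in all. The median over 34943 windows of RefSeq genes was 14 CpG sites. MBD3 held 40, ZBTB33 33, MBD4 29 and MBD1 27, so every member with a single window lay above that median. ZBTB38 had 10 windows, of which 7 held 10 CpG sites or fewer. The motif CGCG, a pair of adjacent CpG sites that Kaiso binds when methylated, was in 7 of the 16 member windows and in 49.7% of all windows. Every member with a single window held CGCG, and of the 10 ZBTB38 windows only that with the most CpG sites did. The motif occurred 12 times in the MBD3 window, 9 times in that of MBD2 and 2 times in that of ZBTB4. The unmethylated Kaiso motif TCCTGCNA, searched on both strands, was in 1 member window, a ZBTB38 start, and in 4.69% of all windows. No methylation was measured in these libraries.

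**Figure D1:**
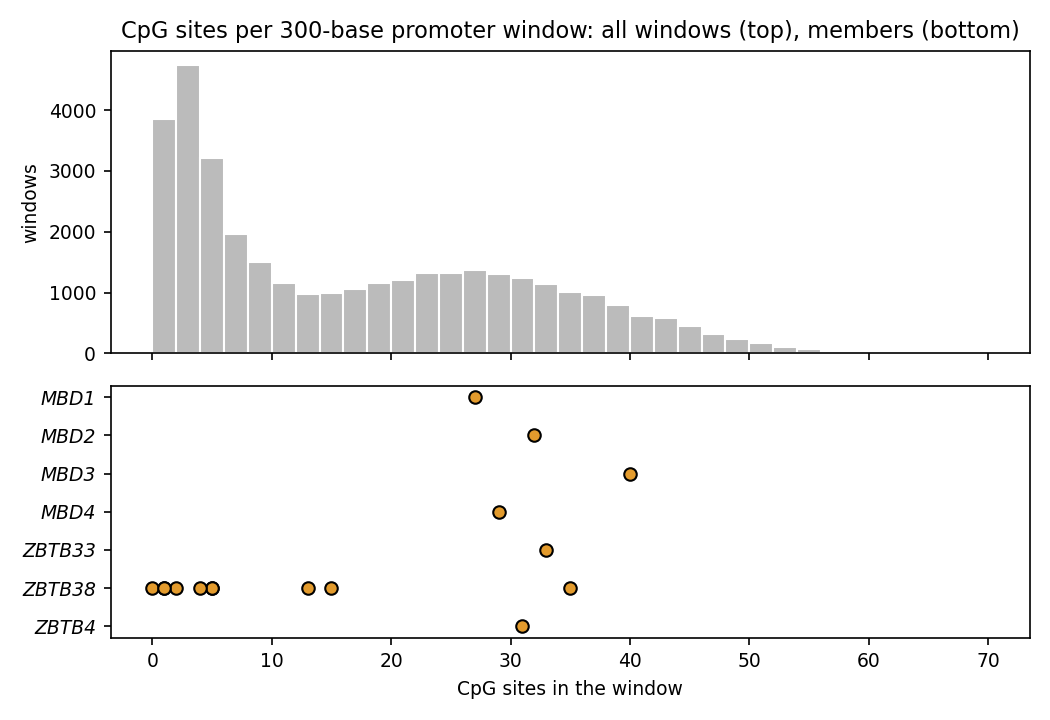
CpG sites per 300-base promoter window in 34943 RefSeq windows (top, histogram) and in the 16 windows of the members (bottom, 1 point per window). ZBTB38 spreads from 0 to 35 sites, and the other members lie between 27 and 40.

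Poly(A) libraries held 15911019 to 17677093 reads each, recovered from the deposited values, and the members had 205 to 1729 reads per library. Hepatocyte markers were present in both groups, 7 of 7 listed, but 2 of them rose and 5 did not pass the test. FGB had 107 FPKM in DNMT3A cells and 34.5 FPKM in control cells (difference 1.61, limma adjusted p = 5.07e-06). TTR had 17.1 FPKM in DNMT3A cells and 6.04 FPKM in control cells (difference 1.38, limma adjusted p = 8.71e-05). Of 7 listed blood, endothelial and stromal markers, 0 reached a mean FPKM of 1, with PTPRC and CD3E listed at 0. DNMT3A itself had 9.75, 10.2, 8.51 and 7.26 FPKM in DNMT3A libraries 1 to 4, against 3.62, 3.89, 3.45 and 3.64 FPKM in control libraries 1 to 4. DNMT3A libraries 2 and 4 stood at an edge of their group more often than the others: each was its highest or lowest library for 64.0% of tested genes, against 30.9% to 57.4% for the other 6 libraries.

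The 7 readers were expressed at moderate levels, with ratios of DNMT3A to control means from 0.865 for MBD2 to 1.46 for ZBTB4, and ZBTB4 alone passed the test. Of the 7, all were tested, 1 rose, 0 fell and 6 did not pass. The background was 20.6% of all tested genes called in either direction, 9.93% called higher and 10.6% called lower. Members with groups that did not overlap numbered 2, ZBTB4 and MBD2, against 25.1% of all tested genes. With 7 genes, both counts are near those shares. The median difference was -0.08 for the members and -0.01 for all tested genes, and the median size was 0.13 for the members and 0.14 for all tested genes. In bulk RNA, fewer cells that express a gene and less RNA per cell cannot be told apart.

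**Figure D2:**
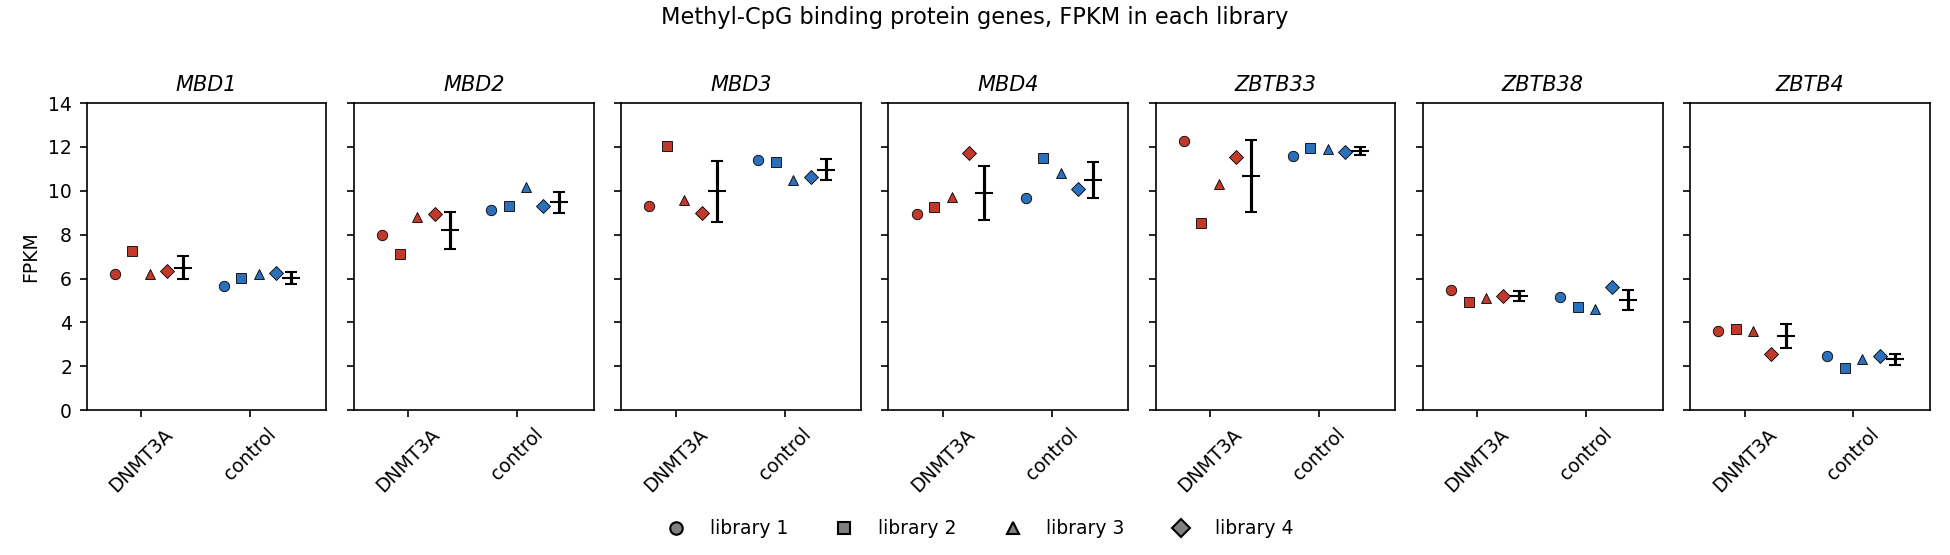
FPKM of each member in each library, with the mean and SD (n = 4 per group) beside the points. DNMT3A libraries are in red at the left of each panel and control libraries in blue at the right, and the marker shape gives the library number. Only the ZBTB4 and MBD2 groups do not overlap.

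By level per length, ZBTB33 stood first in both groups and ZBTB4 last. In DNMT3A cells the mean FPKM was 10.7 for ZBTB33, 9.98 for MBD3, 9.91 for MBD4, 8.20 for MBD2, 6.51 for MBD1, 5.20 for ZBTB38 and 3.37 for ZBTB4. In control cells it was 11.8, 10.97, 10.5, 9.48, 6.03, 5.02 and 2.32 FPKM in the same order of genes. The order of the means was thus the same in both groups. In DNMT3A cells the ranges of neighbours overlapped for ZBTB33 with MBD3, MBD3 with MBD4 and MBD2 with MBD1. In control cells they overlapped for MBD3 with MBD4 and MBD4 with MBD2. MBD1, ZBTB38 and ZBTB4 were separated from one another in both groups. The median tested gene had a mean of 6.40 FPKM.

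MBD1 recruits histone H3K9 methylation through SETDB1 and carries CXXC zinc fingers beside its MBD. The gene (ENSG00000141644, hg38 chromosome 18, 50266882 to 50281774, minus strand) had 6.22, 7.26, 6.22 and 6.33 FPKM in DNMT3A libraries 1 to 4, against 5.67, 6.03, 6.19 and 6.24 FPKM in control libraries 1 to 4. DNMT3A libraries 1 and 3 lay inside the range of the controls, library 4 just above it and library 2 clearly above it. The difference was 0.09 (95% interval -0.05 to 0.23, limma adjusted p = 0.321), and without DNMT3A library 2 it was 0.05 (limma adjusted p = 0.570).

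MBD2 binds methylated CpG and, as an alternative to MBD3, forms part of NuRD. The gene (ENSG00000134046, chromosome 18, 54151601 to 54224788, minus strand) had 7.97, 7.11, 8.80 and 8.93 FPKM in DNMT3A libraries 1 to 4, against 9.12, 9.32, 10.2 and 9.32 FPKM in control libraries 1 to 4. Every DNMT3A library was below every control library, with the highest DNMT3A value 8.93 and the lowest control value 9.12. Means were 8.20 ± 0.845 FPKM in DNMT3A cells and 9.48 ± 0.472 FPKM in control cells (SD, n = 4 each). The difference of -0.19 (95% interval -0.36 to -0.03) did not pass the test, with an unadjusted p of 0.0267 and a limma adjusted p of 0.0945. An exact permutation test (two-sided) gave p = 0.0286, the lowest value possible with 70 assignments. Of all tested genes, 35% had an unadjusted p under the same 0.05.

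MBD3 is the NuRD subunit that replaces MBD2. The gene (ENSG00000071655, chromosome 19, 1573596 to 1592801, minus strand) had 9.32, 12.0, 9.57 and 8.99 FPKM in DNMT3A libraries 1 to 4, against 11.4, 11.3, 10.5 and 10.6 FPKM in control libraries 1 to 4. DNMT3A libraries 1, 3 and 4 were below all controls and library 2 was above all controls. The difference was -0.13 (limma adjusted p = 0.292). Without DNMT3A library 2 it was -0.22 and passed the test (limma adjusted p = 0.0230), and without DNMT3A libraries 2 and 4 together, a choice made after the values were seen, it was -0.20 (limma adjusted p = 0.0641).

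MBD4 removes thymine from G:T mismatches that arise when methylcytosine deaminates. The gene (ENSG00000129071, chromosome 3, 129430944 to 129440179, minus strand) had 8.94, 9.24, 9.74 and 11.7 FPKM in DNMT3A libraries 1 to 4, against 9.65, 11.5, 10.8 and 10.1 FPKM in control libraries 1 to 4. The groups overlapped, and DNMT3A library 4 held the highest value of all 8. The difference was -0.08 (95% interval -0.27 to 0.11, limma adjusted p = 0.538). Without DNMT3A library 4 it was -0.16 (limma adjusted p = 0.140).

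ZBTB33 encodes Kaiso, which binds methylated CpG pairs and recruits the NCoR co-repressor. The gene (ENSG00000177485, chromosome X, 120250752 to 120258398, plus strand) had 12.3, 8.55, 10.3 and 11.5 FPKM in DNMT3A libraries 1 to 4, against 11.6, 12.0, 11.9 and 11.8 FPKM in control libraries 1 to 4. The controls lay within a narrow band, and the DNMT3A libraries spread from above it (library 1) to well below it (library 2). The SD of the controls was 1.53% of their mean. Counting error was 3.47% at the lowest reads of this gene, 832 in DNMT3A library 2, and the controls held 979 to 1103 reads. Whether the 4 controls lie closer together than counting alone would give was not tested. Means were 10.7 ± 1.63 FPKM in DNMT3A cells and 11.8 ± 0.181 FPKM in control cells (SD, n = 4 each). The difference was -0.15 (95% interval -0.35 to 0.06, limma adjusted p = 0.297), and without DNMT3A library 2 it was -0.05 (limma adjusted p = 0.580).

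ZBTB38 is a zinc finger repressor of the replication factor MCM10. The gene (ENSG00000177311, chromosome 3, 141324213 to 141449792, plus strand) had 5.50, 4.94, 5.14 and 5.21 FPKM in DNMT3A libraries 1 to 4, against 5.14, 4.71, 4.60 and 5.62 FPKM in control libraries 1 to 4. The DNMT3A values lay inside the range of the controls. The difference was 0.04 (95% interval -0.11 to 0.19, limma adjusted p = 0.672).

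ZBTB4, which binds single methylated CpG sites, rose. The gene (ENSG00000174282, chromosome 17, 7459366 to 7484263, minus strand) had 3.63, 3.71, 3.60 and 2.54 FPKM in DNMT3A libraries 1 to 4, against 2.48, 1.94, 2.35 and 2.49 FPKM in control libraries 1 to 4. Libraries 1 to 3 of the DNMT3A group lay close together and well above the controls, and library 4 was just above the highest control. Means were 3.37 ± 0.553 FPKM in DNMT3A cells and 2.32 ± 0.255 FPKM in control cells (SD, n = 4 each), a ratio of 1.46. The difference was 0.39 (SE 0.10, 95% interval 0.16 to 0.62, limma adjusted p = 0.0266), and the exact permutation test again gave its lowest possible p of 0.0286. A total of 89.7% of tested genes had a smaller difference. ZBTB4 rested on 205 to 416 reads per library, the fewest of the members, and counting error alone was 6.98% at the lowest. The call was lost without DNMT3A library 1, 2 or 3 or control library 2 or 3 (limma adjusted p = 0.0570 to 0.0731) and without a filter (0.0900), and it held without DNMT3A library 4 (0.00418).

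**Figure D3:**
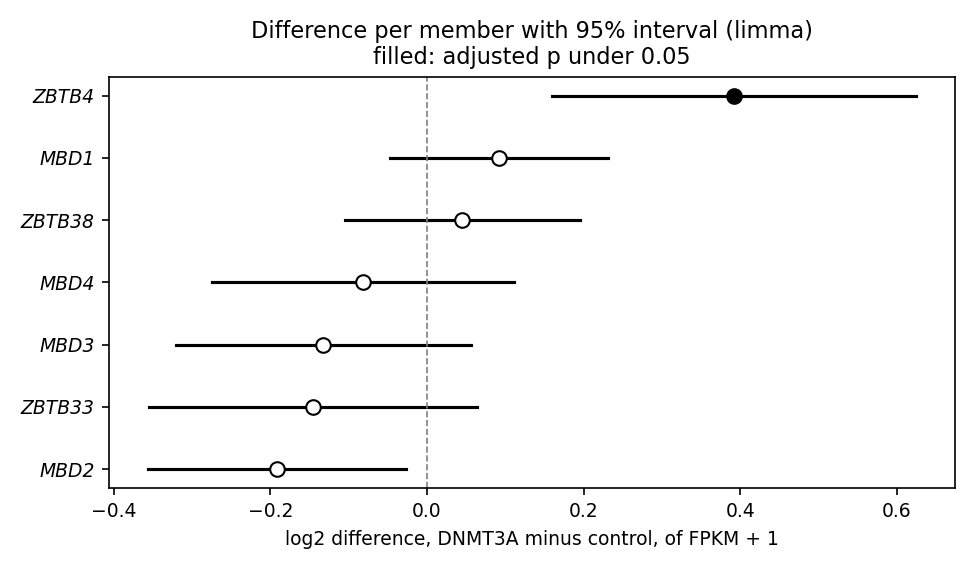
Difference between DNMT3A and control cells in log2(FPKM + 1) for each member, with its 95% interval from limma. ZBTB4 (filled) is the member past the threshold at 0.39, and the other 6 lie between -0.19 and 0.09.

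The spread among the DNMT3A libraries was larger than among the controls for 6 of 7 members, ZBTB38 being the exception, and for 63.0% of all tested genes. DNMT3A library 2 was the highest or lowest of its group for 6 members and DNMT3A library 4 for 4. In library 2 ZBTB33 was 0.42 below the control mean on the log2 scale and MBD2 0.37 below it, while MBD1 was 0.23 and MBD3 0.12 above it. In library 4, which also had the least DNMT3A RNA of its group, ZBTB4 was 0.10 above the control mean, against 0.47 to 0.51 in the other 3 DNMT3A libraries. A relation between DNMT3A RNA and ZBTB4 was not tested, and here it would rest on library 4 alone. The part of any technical difference of these libraries in the members' values was not tested either.

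**Figure D4:**
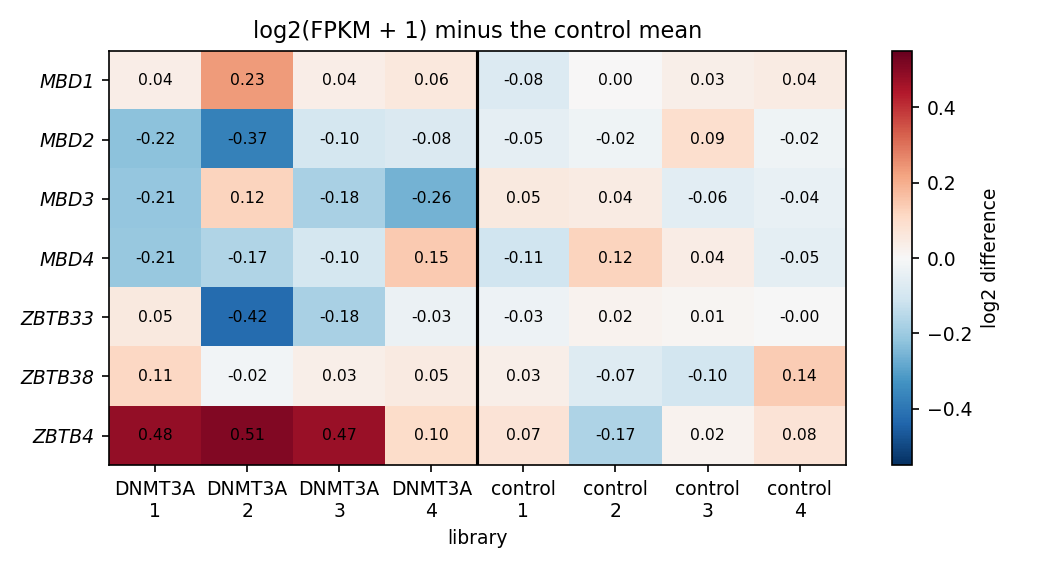
log2(FPKM + 1) of each member in each library minus the mean of the 4 control libraries. DNMT3A libraries are at the left and control libraries at the right; red is above and blue below the control mean. ZBTB4 is 0.47 to 0.51 in DNMT3A libraries 1 to 3 and 0.10 in library 4.

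Ratios between functionally paired genes within a library do not depend on the library total apart from the pseudocount, and 3 were compared. The log2 ratio of MBD2 to MBD3, the alternative subunits of NuRD, was -0.20, -0.69, -0.11 and -0.01 in DNMT3A libraries 1 to 4, against -0.29, -0.26, -0.04 and -0.17 in control libraries 1 to 4. The groups overlapped (difference -0.06, two-sided exact permutation p = 0.857, adjusted over the 3 ratios 0.857), and without DNMT3A library 2 the difference changed sign to 0.0850 (two-sided exact permutation p = 0.343). The log2 ratio of ZBTB38 to ZBTB4 averaged 0.51 ± 0.21 in DNMT3A cells and 0.86 ± 0.10 in control cells (SD, n = 4 each; difference -0.35, two-sided exact permutation p = 0.0571, adjusted 0.0857). The ratio was lower in 3 of the 4 DNMT3A libraries than in any control library. The log2 ratio of MBD4 to TDG, the other glycosylase for G:T mismatches, was 0.70 to 0.75 in DNMT3A libraries, against 0.55 to 0.66 in control libraries. These groups did not overlap, and the difference was 0.12 (two-sided exact permutation p = 0.0286, the lowest possible with 70 assignments). Adjusted over the 3 ratios it was 0.0857, the least that a single ratio at the lowest p can reach. The adjusted value therefore cannot decide whether this ratio differed. TDG had 5.61 ± 0.738 FPKM in DNMT3A cells and 6.56 ± 0.280 FPKM in control cells (SD, n = 4 each, difference -0.20, limma adjusted p = 0.103). TDG stayed short of the threshold in 16 of 19 alternatives (limma adjusted p up to 0.226). It passed the test without DNMT3A library 4 (limma adjusted p = 0.0119), without DNMT3A libraries 2 and 4 together (0.0262) and with array weights (0.0148). Array weights were lowest for DNMT3A libraries 2 and 4 (0.44 and 0.49), so these settings are not independent. With array weights 3756 of all tested genes were called, against 2389 in the main fit.

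Genes of the complexes that the readers recruit were counted by list, beside the 20.6% called among all tested genes. Of 13 listed NuRD genes 12 were tested, 2 rose, 2 fell and 8 did not pass, with a median of 0.07. The chromatin remodeller CHD3 had 3.11 ± 0.398 FPKM in DNMT3A cells and 2.29 ± 0.399 FPKM in control cells (SD, n = 4 each; difference 0.32, limma adjusted p = 0.0490), and the scaffold GATAD2B rose by 0.23 (0.0367). The CHD3 groups overlapped, at 2.62 to 3.58 FPKM in DNMT3A libraries and 2.02 to 2.88 FPKM in control libraries. The histone chaperone RBBP7 fell (difference -0.22, limma adjusted p = 0.0295), as did the small subunit CDK2AP1 (-0.28, 0.00993). CDK2AP1 had 14.8 to 16.3 FPKM in DNMT3A libraries, against 17.6 to 20.1 FPKM in control libraries, and its groups did not overlap. The deacetylase HDAC1 had a difference of 0.13 (limma adjusted p = 0.114). Calls were lost for CHD3 without DNMT3A library 1, 2 or 3 or control library 2, 3 or 4 (limma adjusted p = 0.0865 to 0.123), for RBBP7 without DNMT3A library 1 or 3 or control library 2, 3 or 4 (0.0527 to 0.0824) and for GATAD2B without DNMT3A library 1 or 3 or any 1 control library (0.0528 to 0.104). All 3 calls were also lost with quantile normalization (0.0555 to 0.0732) and without a filter (0.0530 to 0.142), and those of CHD3 and RBBP7 without DNMT3A libraries 2 and 4 together (0.0615 and 0.0519).

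Among 8 listed NCoR genes and partners of Kaiso, 7 were tested, 0 rose, 2 fell and 5 did not pass, with a median of -0.12. TBL1X, a core subunit of the NCoR complex, had 9.18 to 10.1 FPKM in DNMT3A libraries, against 11.1 to 11.8 FPKM in control libraries (difference -0.25, limma adjusted p = 0.0101). The insulator protein CTCF had 7.22 to 8.31 FPKM in DNMT3A libraries, against 9.07 to 9.69 FPKM in control libraries (difference -0.27, limma adjusted p = 0.0107). Neither gene's groups overlapped; TBL1X missed the threshold without DNMT3A libraries 2 and 4 together (limma adjusted p = 0.0504). CTNND1, the p120 catenin that binds Kaiso, had a difference of 0.17 (limma adjusted p = 0.0970) and passed without DNMT3A library 4 (0.0301), with quantile normalization (0.0360), array weights (0.0275), voom (0.0399) and without DNMT3A libraries 2 and 4 together (0.0481). CTNND1 stayed short of the threshold in the other 14 of 19 alternatives (limma adjusted p up to 0.220). Of 9 listed SIN3 and CtBP co-repressors and ZBTB38 partners, 8 were tested, 1 rose and 0 fell, with a median of 0.13. SAP30, a SIN3 subunit, had 11.4 ± 1.34 FPKM in DNMT3A cells and 8.998 ± 0.957 FPKM in control cells (SD, n = 4 each; difference 0.31, limma adjusted p = 0.0462), and SAP18 of the same complex had a difference of -0.15 (0.144). The SAP30 groups overlapped, at 9.43 to 12.5 FPKM in DNMT3A libraries and 8.09 to 10.3 FPKM in control libraries. The SAP30 call was lost without DNMT3A library 1, 3 or 4 or control library 2, 3 or 4 (limma adjusted p = 0.0808 to 0.123), without a filter (0.131) and without a trend (0.0531).

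The heterochromatin partners of MBD1 numbered 11, all tested, of which 0 rose, 1 fell and 10 did not pass, with a median of -0.10. CBX5, the heterochromatin protein HP1 alpha, had 3.97 to 5.328 FPKM in DNMT3A libraries, against 5.335 to 6.29 FPKM in control libraries (difference -0.32, limma adjusted p = 0.0249). CBX3 (difference -0.25, limma adjusted p = 0.0749) and TRIM28 (-0.10, 0.287) did not pass, and CBX3 passed without DNMT3A library 4 (0.0242), with array weights (0.0340) and among protein-coding genes only (0.0462). CBX3 stayed short of the threshold in the other 16 of 19 alternatives (limma adjusted p up to 0.232). CBX5 lost its call without DNMT3A library 3 or control library 2, 3 or 4 (limma adjusted p = 0.0541 to 0.0717), without a filter (0.0764) and without DNMT3A libraries 2 and 4 together (0.116). Of 19 listed base excision repair genes 18 were tested, 1 rose, 0 fell and 17 did not pass, with a median of -0.07. The gene that rose was APEX1, the abasic site endonuclease, with 97.3 ± 10.5 FPKM in DNMT3A cells and 75.1 ± 3.15 FPKM in control cells (SD, n = 4 each; difference 0.36, limma adjusted p = 0.0129). It lies on chromosome 14, where 13 of 27 of the tested genes within 2 Mb of it also rose, with a median difference of 0.31. Of all tested genes 9.93% were called higher, and the 394 other tested genes of chromosome 14 had a median difference of 0.10. The APEX1 neighbourhood was not tested against these backgrounds. The uracil glycosylase UNG had a difference of -0.07 (limma adjusted p = 0.561).

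Other proteins with an MBD were mostly low or did not pass. Of 8 listed, 4 were tested, 1 rose and 0 fell, with a median of 0.12. BAZ2A, a subunit of the nucleolar remodelling complex, had 10.9 to 15.0 FPKM in DNMT3A libraries, against 8.65 to 10.9 FPKM in control libraries (difference 0.42, limma adjusted p = 0.0172). The highest control value, 10.901 FPKM, was just under the lowest DNMT3A value, 10.917 FPKM. BAZ2A lost its call without control library 2 or 3 (limma adjusted p = 0.0521 to 0.0522) and without a filter (0.0637). MBD6 had a difference of 0.23 (limma adjusted p = 0.171) and passed without DNMT3A library 4 (0.0167) and with array weights (0.0376). MBD6 stayed short of the threshold in the other 17 of 19 alternatives (limma adjusted p up to 0.371). CXXC domain proteins, which read unmethylated CpG, were also counted: of 8 listed, 7 were tested, 3 rose, 1 fell and 3 did not pass, with a median of 0.01. The demethylase KDM2A had 16.3 ± 1.16 FPKM in DNMT3A cells and 12.5 ± 0.397 FPKM in control cells (SD, n = 4 each; difference 0.36, limma adjusted p = 0.00390). The H3K4 methyltransferases KMT2B (0.37, limma adjusted p = 0.0124) and KMT2A (0.32, 0.0265) rose, and CXXC5 fell to 24.1 ± 1.96 FPKM in DNMT3A cells, against 32.6 ± 2.23 FPKM in control cells (SD, n = 4 each; -0.42, 0.00446). KMT2A lost its call without DNMT3A library 1 or 3 or control library 1 or 2 (limma adjusted p = 0.0531 to 0.0731), without a filter (0.0785) and without DNMT3A libraries 2 and 4 together (0.0821). The list counts are descriptions, not tests of the lists, and SETDB1 is in both the MBD1 and the MBD-domain lists.

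**Figure D5:**
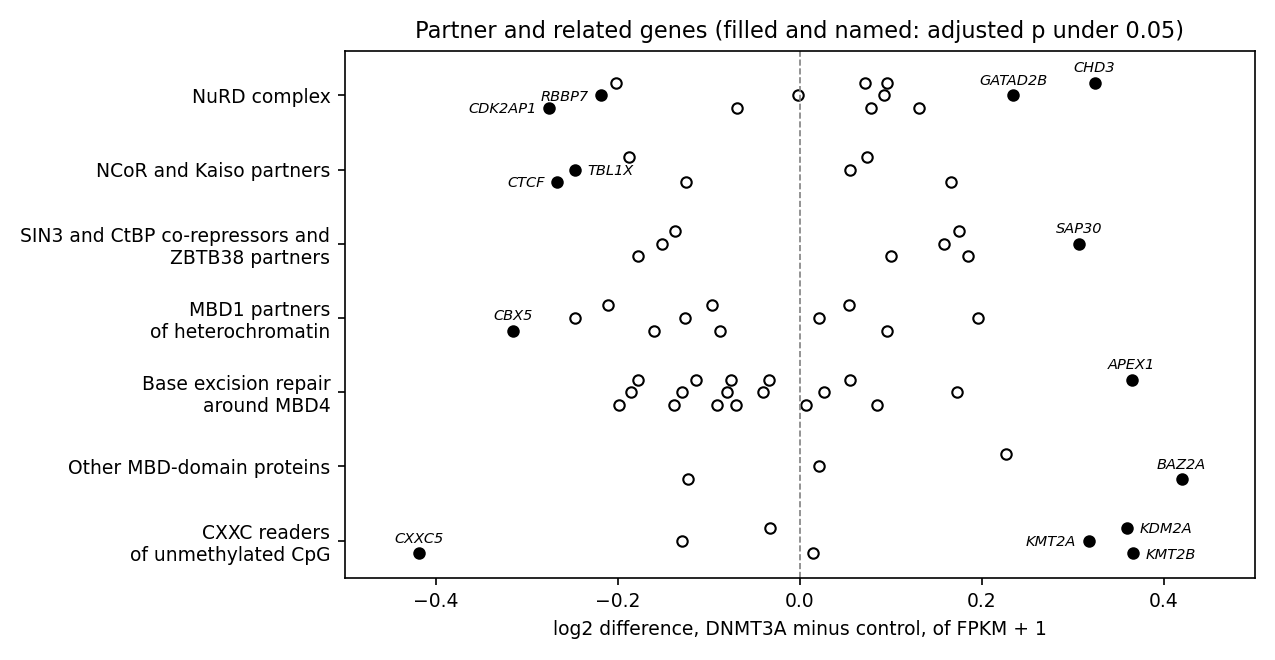
Difference between DNMT3A and control cells in log2(FPKM + 1) for each tested gene of the 7 partner lists, 1 point per gene and list. Filled, named points passed the limma test at an adjusted p under 0.05; they run from -0.42 for CXXC5 to 0.42 for BAZ2A.

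For each member the 2 protein-coding genes with the most similar profile were taken by Pearson's r of log2(FPKM + 1) over the 8 libraries, which share their scaling and the contrast of groups. ZBTB4 was closest to ZNF740 (r = 0.998) and SNX29 (0.986), and r stayed at 0.997 and 0.980 or more when any 1 library was left out. MBD1 was closest to EWSR1 (0.957) and PLK2 (0.954), and MBD2 to YIPF1 (0.983) and SH3GLB1 (0.983). MBD3 was closest to ANO7 (0.988) and CTTN (0.979), and MBD4 to SMIM26 (0.972) and NOL8 (0.966). ZBTB33 was closest to NDC1 (0.973) and SUZ12 (0.967), and ZBTB38 to REST (0.974) and WWC2 (0.932). With 1 library left out, the lowest r was 0.840 for MBD1 with EWSR1, 0.853 for ZBTB33 with SUZ12 and 0.893 for WWC2 with ZBTB38, and 0.915 to 0.983 for the other 9 of these pairs. With 11620 genes and 8 libraries, such values are a description of these libraries. ZNF740 rose as ZBTB4 did (difference 0.35, limma adjusted p = 0.0257), and the other 13 did not pass the test.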

How the data were processed

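Messenger RNA captured on poly-T beads was sequenced in 8 libraries, per the labels' protocols. The submitters' processing notes name HISAT2 2.0.5 and hg38. No source used here names the counting program. The deposited table holds FPKM, per the file headers. Multiplied by gene length, 100% of values were whole multiples of a library's smallest step, within 0.01 of a read, and the rounded multiples were used as reads. The total implied by the step was the same multiple (0.999) of median-ratio size factor times mean read total in all 8 libraries, so the deposited FPKM already carry a median-ratio scaling. Gene coordinates and exon lengths of the members equal those of GENCODE release 29. FPKM divides by the length of all annotated exons, so levels of genes with many isoforms depend on that length.

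log2(FPKM + 1) of genes whose mean reached 1 FPKM was compared with limma 3.58.1 in R 4.3.3 (eBayes with trend), without a block; the script was tested on simulated data. Single values were compared with exact permutation tests (scipy 1.17.1). The members and lists were chosen with earlier results of these data known. Genes that could be named were the members, DNMT3A, up to 4 called and 2 other genes per list, the 2 closest profiles per member and genes overlapping a member. PTPRC and CD3E were named as markers at 0, and TDG for its planned ratio. Alternatives were another pseudocount, no filter, median-ratio and quantile scaling, no trend, array weights, voom on the reads, the replicate number as a block and leaving out each library, and 3 more chosen after seeing the data. Which of these were printed was chosen after values were seen. The labels do not state separate cultures for the libraries of a group. The p-values therefore reflect the variation among these libraries alone, and that may be technical. No strand-marking step appears in the protocol.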

Additional observations from a re-analysis of the deposited data

Results flagged for a closer look

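In each of 66 groups of 4 libraries (DNMT3A, the 7 members, 22 partners and 3 ratios, in both groups), the library farthest from its nearest neighbour was compared with the range of its group, and 3 stood apart by Dixon's criterion; chance gives about 1 in 20. MBD1 had 7.26 FPKM in DNMT3A library 2, against 6.22 to 6.33 FPKM in the other DNMT3A libraries. ZBTB4 had 2.54 FPKM in DNMT3A library 4, against 3.597 to 3.71 FPKM in the other DNMT3A libraries. APEX1 had 81.7 FPKM in DNMT3A library 4, against 101 to 104 FPKM in the other DNMT3A libraries.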

How the results depend on the processing

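No member's difference changed sign under any alternative run. MBD1, MBD2, MBD4, ZBTB33 and ZBTB38 stayed short of the threshold under every one. ZBTB4 was 0.39 without a filter (30436 genes tested, limma adjusted p = 0.0900) and 0.39 with the replicate number as a block (0.0513), both short of it, and 0.34 to 0.49 with 1 library left out. With 1 library left out MBD3 was -0.22 to -0.0896 (past the threshold only without DNMT3A library 2), MBD2 -0.23 to -0.13, MBD1 0.05 to 0.11, MBD4 -0.16 to -0.04, ZBTB33 -0.21 to -0.05 and ZBTB38 0.01 to 0.09. Genes called numbered 3756 with array weights and 1508 to 2443 with 1 library left out, against 2389. The MBD2 to MBD3 ratio was -0.14 to 0.0850 with 1 library left out and changed sign without DNMT3A library 2. The MBD4 to TDG ratio was 0.12 with the replicate block (exact sign-flip p = 0.125, the smallest that 4 pairs allow) and 0.10 to 0.13 with 1 library left out, where the smallest possible exact permutation p is 0.0571. Within-group deviations of same-numbered libraries of the 2 groups correlated at 0.16, -0.08, -0.02 and 0.10. Libraries with different numbers correlated at -0.32 to 0.20. With 4 libraries per group, such values cannot decide whether the numbers pair the libraries. With the block, ZBTB4 and, of the partners, RBBP7, GATAD2B, SAP30, CBX5 and KMT2A lost their calls. Median-ratio scaling changed nothing, since the deposited values carry it. FPKM by read totals, protein-coding genes only and leaving out DNMT3A libraries 2 and 4 together were chosen after seeing the data; in the last ZBTB4 was 0.48 (limma adjusted p = 0.0155). At 205 to 416 reads per library, ZBTB4 is the member that depth limits most.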

Other observations

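Tested genes near the members were counted beside the background of all tested genes, of which 9.93% were called higher and 10.6% lower; no neighbourhood was tested against it. Within 2 Mb of the start of ZBTB4, 6 of 50 tested genes rose and 2 fell, with a median difference of -0.03. Around MBD3, 1 of 87 rose and 12 fell (median -0.07), and around ZBTB33, 1 of 20 rose and 3 fell (median -0.07). Around MBD4, 5 of 26 rose and 1 fell (median -0.06), and around ZBTB38, 4 of 16 rose and 2 fell (median 0.09). Around MBD1, 0 of 11 rose and 1 fell (median -0.03), and around MBD2, 0 of 3 rose or fell (median 0.09).

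Some exons of MBD4 and MBD3 are shared with other annotated genes, and reads there cannot be assigned to 1 gene from these values. MBD4 shares 144 exon bases, 4.29% of its own, with the intraflagellar transport gene IFT122 on the other strand, where no strand-marking step appears in the protocol, and IFT122 had 1.52 FPKM in DNMT3A cells and 1.81 FPKM in control cells (difference -0.16, limma adjusted p = 0.146). MBD3 shares 767 exon bases, 9.78% of its own, with the gene AC005943.1 on the same strand and 148 bases, 1.89%, with AC005943.2 on the other strand, and both were listed at 0 in all 8 libraries. ZBTB4 shares no exon base with the gene inside its span, SLC35G6.

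The summed level of the 7 members was 52.8 to 55.2 FPKM in DNMT3A libraries, against 55.04 to 56.8 FPKM in control libraries. Means of the sum were 53.8 ± 1.03 FPKM in DNMT3A cells and 56.1 ± 0.786 FPKM in control cells (SD, n = 4 each). The ranges of the sum overlapped, and the sum was not tested.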
